A study of Mus musculus with 9 samples.

Results

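The enzymes and regulators that make cholesterol and fatty acids were followed in the mouse uterus on pseudopregnancy day 4.5, with and without uterine WNK1. The set held 30 genes of the 31274 entries in the expression table, chosen by their place in the pathway, with earlier results of these data known: 17 enzymes of sterol synthesis from acetoacetyl-CoA to cholesterol, the sterol carrier *Stard4*, 7 genes of fatty acid synthesis, and 5 regulators of the SREBP transcription factors. RNA-Seq was carried out on whole uteri of C57BL/6 mice, with 1 library for each of 4 *Wnk1f/f* and 5 *Wnk1d/d* animals, all young virgin females made pseudopregnant by mating with vasectomized wild-type males. *Wnk1f/f* mice carried the floxed *Wnk1* allele on both chromosomes without Cre, and *Wnk1d/d* mice carried the same floxed alleles with *PGR-Cre* on 1 chromosome, which removes exon 2 of *Wnk1* in cells that have expressed the progesterone receptor gene. Immune and endothelial cells keep WNK1 in this model, and the progesterone receptor promoter is also active outside the uterus, in the ovary and pituitary. Values are FPKM (sequenced fragments scaled to exon length and to library size), which already correct for gene length, so that levels may be set side by side between genes.

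Cholesterol is built from acetyl-CoA. The mevalonate steps yield isoprenoid units, these are joined into squalene, squalene is closed into the first ring-bearing sterol, lanosterol, and a last series of enzymes trims lanosterol to cholesterol. Fatty acid synthesis starts from the same acetyl-CoA, which ATP citrate lyase supplies in the cytosol. Both routes are driven by SREBP transcription factors, precursors of which are held in the endoplasmic reticulum by the SCAP escort protein and the INSIG retention proteins while sterol is plentiful, and which are cut and enter the nucleus when it is scarce. SREBP-2, from *Srebf2*, acts mainly on sterol genes and SREBP-1, from *Srebf1*, mainly on fatty acid genes. Cholesterol is a membrane lipid in every cell, and in the corpus luteum of the ovary, the source of progesterone in pregnancy and pseudopregnancy, it is also the raw material of steroid hormones.

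SREBPs bind sterol regulatory elements near gene starts, commonly with NF-Y bound at CCAAT boxes and Sp1 at GC boxes close by. The RefSeq promoter table for GRCm38.p6 held 24 of the 30 genes (250 bases before to 50 bases after each start), without *Fdps*, *Fdft1*, *Sqle*, *Stard4*, *Scd1* and *Scd2*. On either strand CCAAT was found in 20 of the 24 (83.3%) and in 41.1% of the 27025 genes of the table. The GC box GGGCGG was likewise in 20 of the 24 (83.3%) and in 38.2% of all genes. The sterol regulatory element TCACNCCAC was in *Hmgcs1* (1 of 24, against 1.44% of all genes), its core CACNCCAC, which every TCACNCCAC match contains, in *Acat2*, *Hmgcs1* and *Insig1* (12.5%, against 7.12%), and the E-box CACGTG in *Hsd17b7*, *Sc5d*, *Dhcr7*, *Scap* and *Insig1* (20.8%, against 8.09%). These are matches of letters in a window and do not show that a factor binds. The 150 bases before the RefSeq start are printed below for the 3 genes of the table that passed the expression test (*Pmvk*, *Fasn* and *Srebf2*) and for *Hmgcs1*, which held the full element. They read 5′ to 3′ on the gene's own strand, with matches to TCACNCCAC, CCAAT or GGGCGG, or to their reverse complements, in capitals, and *Pmvk* is shown at the first of its 2 listed starts.
Hmgcs1 (chr13:119690201-119690350, plus strand): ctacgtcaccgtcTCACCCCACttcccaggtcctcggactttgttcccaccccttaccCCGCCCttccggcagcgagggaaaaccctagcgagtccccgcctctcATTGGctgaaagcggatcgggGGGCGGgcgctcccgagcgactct
Pmvk (chr3:89454391-89454540, plus strand): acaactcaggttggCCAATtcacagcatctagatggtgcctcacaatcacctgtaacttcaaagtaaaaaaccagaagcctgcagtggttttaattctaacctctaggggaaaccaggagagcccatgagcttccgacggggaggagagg
Fasn (chr11:120824548-120824697, minus strand): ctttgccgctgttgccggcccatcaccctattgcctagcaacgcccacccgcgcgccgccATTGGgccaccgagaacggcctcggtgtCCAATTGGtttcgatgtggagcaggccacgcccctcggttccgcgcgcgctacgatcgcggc
Srebf2 (chr15:82147119-82147268, plus strand): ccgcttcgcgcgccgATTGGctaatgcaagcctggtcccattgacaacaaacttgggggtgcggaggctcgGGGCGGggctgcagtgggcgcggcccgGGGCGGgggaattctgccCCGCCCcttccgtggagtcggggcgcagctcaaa
In *Hmgcs1* the sterol element lay 137 bases before the start, with an inverted CCAAT box at 45 bases and GC boxes at 92 and 24 bases. *Srebf2* held an inverted CCAAT box at 135 bases and GC boxes at 79, 52 and 34 bases. *Fasn* held 3 CCAAT matches, at 90, 62 and 59 bases, of which the last 2 overlap in the palindrome printed in capitals. *Pmvk* held a CCAAT box at 136 bases and no GC box in these 150 bases. The RefSeq start of *Srebf2* lies inside the gene's GENCODE span.

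The targeted gene followed the labels: *Wnk1* had 45.3 ± 1.62 FPKM (SD, n = 4) in *Wnk1f/f* and 31.2 ± 1.62 FPKM (SD, n = 5) in *Wnk1d/d* uteri, a difference of -0.52 in log2(FPKM + 1) (limma adjusted p = 0.00167). Some libraries stood apart in the genes of other cell types. Liver genes summed to 230 FPKM in *Wnk1f/f* replicate 4 and to 20.6 to 52.6 FPKM in the others. Of 10 ovary and luteal genes, *Cyp11a1*, *Hsd3b1*, *Star*, *Lhcgr*, *Inha* and *Amh* were highest in *Wnk1d/d* replicate 3. *Akr1c18*, *Inhba*, *Cyp19a1* and *Cyp17a1* were highest in other *Wnk1d/d* libraries, *Akr1c18* with 6.3 FPKM in replicate 2 and 1.63 in replicate 3. *Lhcgr*, *Cyp19a1* and *Cyp17a1* were below 1 FPKM in every library. *Cyp11a1*, which makes the first steroid from cholesterol, had 0.37, 0.27, 3.47 and 0.42 FPKM in *Wnk1f/f* replicates 1 to 4. In *Wnk1d/d* replicates 1 to 5 it had 4.23, 1.97, 13.92, 0.36 and 0.43 FPKM. *Hsd3b1*, which acts after it, was above 1 FPKM in the same 4 libraries, *Wnk1f/f* replicate 3 (2.44) and *Wnk1d/d* replicates 1, 2 and 3 (2.92, 1.40 and 9.37), and at most 0.28 FPKM in the other 5. The summed level of 10 ovary and luteal genes ran from 17.8 to 24.1 FPKM in *Wnk1f/f* and from 20.7 to 51.1 FPKM in *Wnk1d/d* libraries, and *Akr1c18* and *Inhba* had adjusted p under 0.05 but entered the test through the *Wnk1d/d* group alone, where they are high. All 8 smooth muscle markers rose in *Wnk1d/d* uteri (summed level 2990 to 6730 FPKM in *Wnk1f/f* and 7540 to 14200 in *Wnk1d/d* libraries). Among 10 stroma markers 8 fell and 1 (*Lum*) rose, and 7 of 8 endothelium markers fell. Beside these, limma called 11.1% of all genes tested higher and 11.0% lower, 22.1% in either direction (adjusted p under 0.05). Epithelium markers were called in 2 of 10, on the higher side, a share near that 22.1%. Macrophage markers passed the test in 0 of 8. In whole tissue, more cells of a type and more RNA per cell cannot be told apart, and the part of these cell types in the lipid genes' differences was not tested. Adipocyte markers bear directly on fat tissue adhering to the uterus: *Lep* was listed at 0 in all 9 libraries, *Adipoq*, *Plin1* and *Ucp1* were at most 0.25 FPKM, and 10 of the 12 markers were below 1 FPKM in every library. Among these 10, *Adrb3* had 0.18 to 0.37 FPKM in *Wnk1f/f* and 0.42 to 0.77 in *Wnk1d/d* libraries, and the others overlapped between genotypes. Of the other 2 markers, *Fabp4*, which endothelial cells also express, rose from 3.13 ± 1.74 to 10.9 ± 4.19 FPKM (limma adjusted p = 0.00837). All 8 endothelium markers were on the lower side, and the cell source of *Fabp4* was not tested. *Pck1* did not pass the test (limma adjusted p = 0.317).

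By level, the set ran from trace to abundant mRNA. *Scd2*, a stearoyl-CoA desaturase that puts the double bond into oleate and palmitoleate, was the most abundant, with 133 ± 12.8 FPKM in *Wnk1f/f* uteri (SD, n = 4), followed by *Acly*, ATP citrate lyase, with 56.7 ± 1.98. *Ebp* (34.5 ± 4.70) and *Fasn* (33.9 ± 4.36) came next and did not differ beyond their spread. *Idi1*, the isomerase that makes dimethylallyl diphosphate, was the lowest, with 0.797 ± 0.247 FPKM, and passed the filter of a mean above 1 FPKM through the *Wnk1d/d* group alone. The other 29 genes passed in both genotypes.

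Few genes of the set differed between genotypes. Of the 30 genes, 4 rose in *Wnk1d/d* uteri (limma on log2(FPKM + 1), Benjamini-Hochberg adjusted p under 0.05 over the 14728 genes tested) and 0 fell. They were *Sqle* and *Pmvk* of sterol synthesis, *Fasn* of fatty acid synthesis, and *Srebf2*. This was 13.3% of the set, beside 22.1% of all genes tested called in either direction, 11.1% higher and 11.0% lower, a share below the background for either direction and near that for genes called higher. Among the 29 genes that passed the filter in both genotypes, 10 were higher and 1 lower at an unadjusted p under 0.05, against 19.7% and 18.8% of all genes. Their differences were above 0 in 21 of 29, against 50.5% of all genes, with a median log2 difference of 0.12 against 0.00. With the added requirement of a 1.5-fold ratio of mean FPKM, 2 genes remained, *Sqle* and *Pmvk*, where 10.3% of all genes met both criteria, 5.09% higher and 5.18% lower. The genotypes did not overlap for *Sqle*, *Fasn* and *Srebf2*, 3 of 30 genes with all *Wnk1d/d* libraries above all controls, against 9.27% of all genes, with 10.6% separated the other way.

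**Figure D1:**
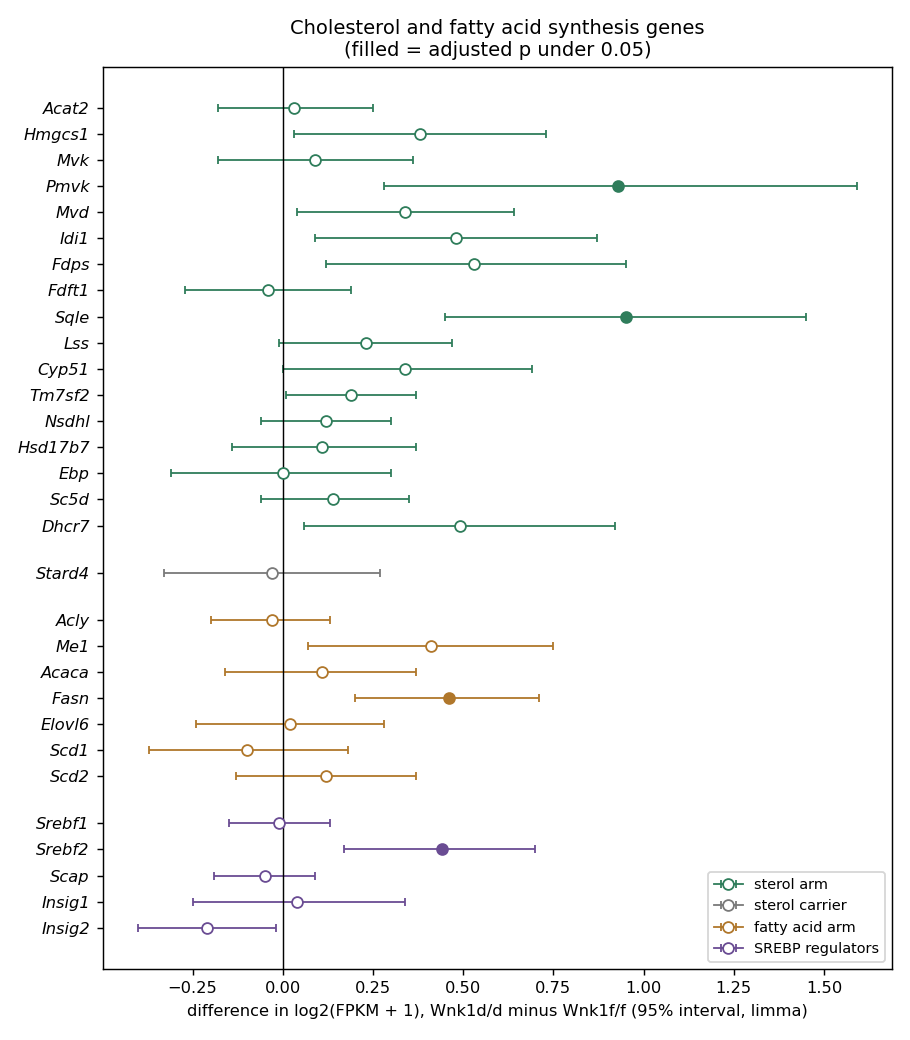
Difference in log2(FPKM + 1) between Wnk1d/d (n = 5) and Wnk1f/f (n = 4) uteri for the 30 genes, with 95% intervals from limma, coloured by arm. Filled points passed an adjusted p of 0.05 (Sqle, Pmvk, Fasn and Srebf2); most of the 17 sterol enzymes lie above 0, and their intervals mostly reach close to or across it.

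*Sqle* encodes squalene epoxidase, the oxygen-dependent step that commits squalene to sterols. It had 3.78, 3.16, 4.25 and 3.44 FPKM in *Wnk1f/f* replicates 1 to 4 and 8.61, 4.95, 13.18, 9.07 and 6.13 FPKM in *Wnk1d/d* replicates 1 to 5. Every *Wnk1d/d* library was above every control, replicate 2 least and replicate 3 most. The means were 3.66 ± 0.469 (SD, n = 4) and 8.39 ± 3.18 FPKM (SD, n = 5), a 2.29-fold ratio and a log2 difference of 0.95 (standard error 0.22, limma adjusted p = 0.0177). The exact two-sided permutation test gave p = 0.016, unadjusted, where 0.0079 is the smallest p that 4 against 5 libraries can give. The call held in each of the 9 fits that left out 1 library, with log2 differences of 0.79 to 1.10. The limma adjusted p in these fits ran from 0.00556 to 0.048, the last close to the threshold. The gene lies at chr15:59315077-59331192 on the plus strand (mm10).

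*Pmvk*, phosphomevalonate kinase, adds the second phosphate in the mevalonate steps and lies at chr3:89454541-89469013 on the plus strand (mm10). Its values were 18.76, 33.89, 28.87 and 22.11 FPKM in *Wnk1f/f* and 47.08, 24.32, 60.71, 64.35 and 64.01 FPKM in *Wnk1d/d* replicates. The genotypes overlapped, since *Wnk1d/d* replicate 2 lay among the controls and the other 4 above them all. Means were 25.9 ± 6.78 (SD, n = 4) and 52.1 ± 17.1 FPKM (SD, n = 5), a 2.01-fold ratio and a log2 difference of 0.93 (standard error 0.29, limma adjusted p = 0.0465; exact permutation p = 0.04, unadjusted). This call was the least stable of the 4. It held without *Wnk1d/d* replicate 2 (log2 difference 1.18, adjusted p = 0.00415) and was lost on leaving out any other library, each of them with a difference of 0.80 to 1.07 and an adjusted p of 0.0501 to 0.112.

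The other mevalonate enzymes were all on the higher side without passing the test. *Fdps*, which makes farnesyl diphosphate, had 3.92 ± 1.07 FPKM in *Wnk1f/f* and 6.13 ± 1.56 in *Wnk1d/d* uteri (log2 difference 0.53, 95% interval 0.12 to 0.95, limma adjusted p = 0.0665). *Idi1* stood at 0.797 ± 0.247 and 1.54 ± 0.580 FPKM (0.48, 0.09 to 0.87, limma adjusted p = 0.0755). *Hmgcs1*, the HMG-CoA synthase of the cytosol whose promoter is printed above, had 14.8 ± 2.65 and 19.6 ± 3.86 FPKM (0.38, 0.03 to 0.73, limma adjusted p = 0.102). For *Mvd*, the decarboxylase, the difference was 0.34 (0.04 to 0.64, limma adjusted p = 0.0967). *Mvk*, mevalonate kinase, and *Acat2*, which joins acetyl-CoA units at the entry of the route, differed by 0.09 (-0.18 to 0.36) and 0.03 (-0.18 to 0.25). Over the 6 mevalonate genes that passed the filter in both genotypes, which leaves out *Idi1*, 4 had an unadjusted p under 0.05, 6 a difference above 0, and the median was 0.36. Of all genes, 19.7% were higher at that unadjusted p and 50.5% had a difference above 0.

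Around *Sqle* the other enzymes did not pass the test. *Lss*, which closes the rings, differed by 0.23 (-0.01 to 0.47, limma adjusted p = 0.146), and *Fdft1*, squalene synthase, by -0.04 (-0.27 to 0.19). Of the 7 enzymes from lanosterol to cholesterol, 0 passed the test with limma, 2 had an unadjusted p under 0.05, and 6 were on the higher side, with a median of 0.14. Beside these, 22.1% of all genes were called, 19.7% were higher at that unadjusted p and 50.5% were above 0. *Dhcr7*, which reduces 7-dehydrocholesterol in the final step, was the farthest from 0, with 9.49 ± 2.14 FPKM in *Wnk1f/f* and 13.8 ± 3.28 in *Wnk1d/d* uteri (0.49, 0.06 to 0.92, limma adjusted p = 0.093). *Cyp51*, the lanosterol demethylase, stood at 0.34 (limma adjusted p = 0.131), *Tm7sf2*, a sterol reductase, at 0.19 (0.01 to 0.37), *Sc5d* at 0.14 (-0.06 to 0.35), *Nsdhl* at 0.12 (-0.06 to 0.30) and *Hsd17b7* at 0.11 (-0.14 to 0.37). *Ebp*, the sterol isomerase, had 34.5 ± 4.70 and 34.6 ± 5.99 FPKM, with an interval of -0.31 to 0.30. *Stard4*, which carries cholesterol between membranes, differed by -0.03 (-0.33 to 0.27).

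**Figure D2:**
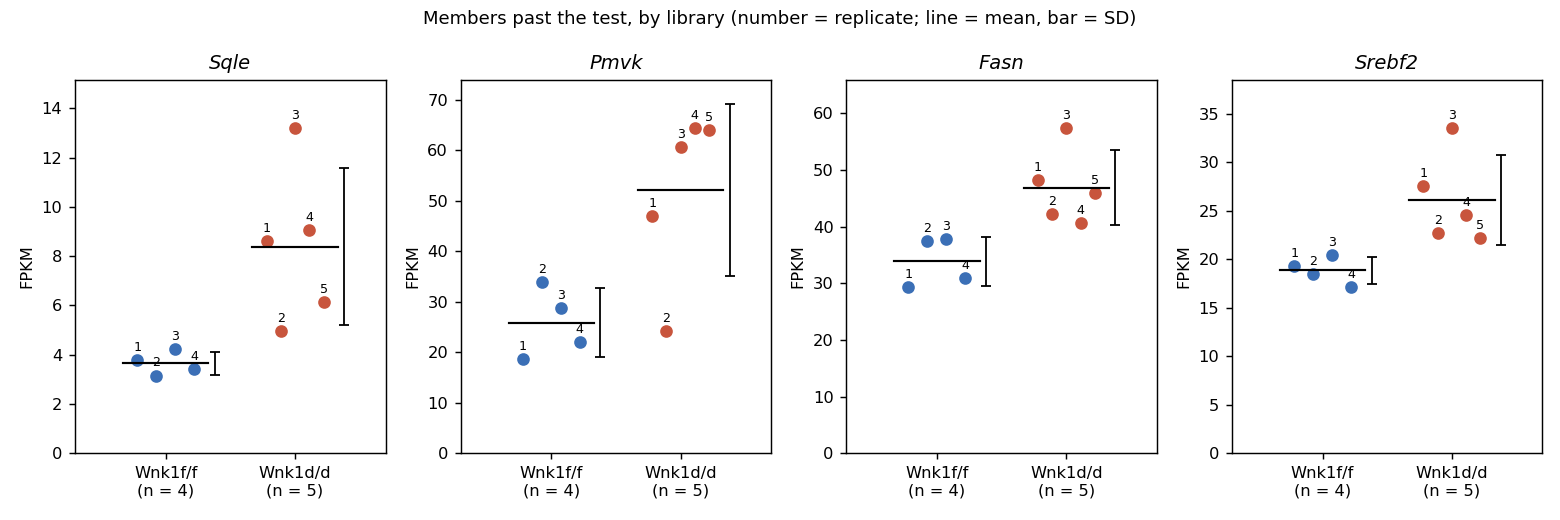
FPKM of Sqle, Pmvk, Fasn and Srebf2 in each library, with points numbered by replicate, lines at the genotype means and bars of 1 SD (Wnk1f/f n = 4, Wnk1d/d n = 5). Wnk1d/d replicate 3 is the highest of the 9 libraries for Sqle, Fasn and Srebf2, and Wnk1d/d replicate 2 lies among the controls for Pmvk.

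In the fatty acid arm 1 of 7 genes rose (14.3%, beside 11.1% of all genes called higher). It was *Fasn*, the multi-domain synthase that builds palmitate (chr11:120805846-120824547, minus strand, mm10). Its values were 29.31, 37.47, 37.75 and 31.02 FPKM in *Wnk1f/f* and 48.23, 42.23, 57.31, 40.71 and 45.99 FPKM in *Wnk1d/d* replicates. The genotypes did not overlap, and the gap between the highest control and the lowest *Wnk1d/d* library was narrow. Means were 33.9 ± 4.36 (SD, n = 4) and 46.9 ± 6.54 FPKM (SD, n = 5), a 1.38-fold ratio and a log2 difference of 0.46 (standard error 0.12, limma adjusted p = 0.0236; exact permutation p = 0.0079, unadjusted). Without *Wnk1f/f* replicate 1 the difference was 0.39 (adjusted p = 0.0602), and without *Wnk1f/f* replicate 4 it was 0.42 (adjusted p = 0.0667).

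The enzymes before and after FASN in the route did not pass the test. *Me1*, malic enzyme, which supplies NADPH, had 6.77 ± 1.81 FPKM in *Wnk1f/f* and 9.22 ± 1.34 in *Wnk1d/d* uteri (log2 difference 0.41, 95% interval 0.07 to 0.75, limma adjusted p = 0.0778). Its *Wnk1f/f* replicate 1 lay at 9.47 FPKM, far above the other controls at 5.52 to 6.08, and without that library the adjusted p was 0.0184 for a difference of 0.56. *Acaca*, acetyl-CoA carboxylase, differed by 0.11 (-0.16 to 0.37), *Acly* by -0.03 (-0.20 to 0.13) and *Elovl6*, which lengthens palmitate to stearate, by 0.02 (-0.24 to 0.28).

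The desaturases are a close pair. *Scd1* had 11.37, 9.55, 10.70 and 15.47 FPKM in *Wnk1f/f* and 11.58, 10.05, 11.96, 9.93 and 10.47 FPKM in *Wnk1d/d* replicates, and *Scd2* had 124.33, 149.01, 136.56 and 120.91 against 170.91, 137.36, 160.57, 122.81 and 132.79 FPKM. Values of the genotypes overlapped for both genes, and in each library *Scd2* was the higher by far. The within-library log2 ratio of *Scd1* to *Scd2* was -3.40 ± 0.40 (SD, n = 4) in *Wnk1f/f* and -3.62 ± 0.10 (SD, n = 5) in *Wnk1d/d* uteri, and the exact permutation test of the difference gave p = 0.3 (adjusted p = 0.3 over 3 pairs). Their limma intervals were -0.37 to 0.18 for *Scd1* and -0.13 to 0.37 for *Scd2*. The transcripts share a stretch of 623 bases at 95.5% identity, over which reads could be split between them.

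Among the 5 regulators *Srebf2* rose. It lies at chr15:82147181-82205379 on the plus strand (mm10) and had 19.34, 18.47, 20.43 and 17.15 FPKM in *Wnk1f/f* and 27.53, 22.69, 33.46, 24.55 and 22.18 FPKM in *Wnk1d/d* replicates. All 5 *Wnk1d/d* libraries were above all controls, with replicate 3 the highest. Means were 18.8 ± 1.39 (SD, n = 4) and 26.1 ± 4.63 FPKM (SD, n = 5), a 1.38-fold ratio and a log2 difference of 0.44 (standard error 0.12, limma adjusted p = 0.0289; exact permutation p = 0.016, unadjusted). The call was lost on leaving out *Wnk1f/f* replicate 1 (0.45, adjusted p = 0.055), replicate 2 (0.43, adjusted p = 0.061) or replicate 4 (0.39, adjusted p = 0.0798), or *Wnk1d/d* replicate 1 (0.41, adjusted p = 0.0597).

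*Srebf1*, its paralogue, did not pass the test. It had 25.83, 27.94, 24.10 and 26.25 FPKM in *Wnk1f/f* and 24.16, 27.45, 26.65, 25.05 and 25.97 FPKM in *Wnk1d/d* replicates, with a log2 difference of -0.01 (95% interval -0.15 to 0.13). In the controls *Srebf1* was the more abundant of the pair in every library, and in *Wnk1d/d* replicates 1 and 3 it was the less abundant. The within-library log2 ratio of *Srebf1* to *Srebf2* was 0.45 ± 0.17 (SD, n = 4) in *Wnk1f/f* and 0.00 ± 0.25 (SD, n = 5) in *Wnk1d/d* uteri. That difference of -0.44 had an exact permutation p of 0.04, which became 0.12 after adjustment over the 3 pairs, and the values of the genotypes overlapped.

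Of the retention proteins, *Insig1* had 6.07, 4.59, 4.38 and 6.77 FPKM in *Wnk1f/f* and 5.42, 5.65, 6.93, 4.99 and 5.04 FPKM in *Wnk1d/d* replicates (log2 difference 0.04, 95% interval -0.25 to 0.34). *Insig2* had 24.49, 22.16, 25.45 and 25.57 against 23.94, 19.55, 18.49, 22.47 and 20.76 FPKM (-0.21, -0.40 to -0.02, limma adjusted p = 0.0984), the sole gene of the set with an unadjusted p under 0.05 on the lower side. Values overlapped for both. Their log2 ratio was -1.99 ± 0.23 (SD, n = 4) and -1.74 ± 0.28 (SD, n = 5), with an exact permutation p of 0.2 and an adjusted p of 0.3 over the 3 pairs. *Scap* had 21.9 ± 0.715 and 21.1 ± 1.39 FPKM, an interval of -0.19 to 0.09.

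A few libraries held most of the extremes of the sterol arm. *Wnk1d/d* replicate 3 was the highest of the 9 libraries for 11 of the 17 enzymes. *Wnk1d/d* replicate 2 was the lowest of the 5 *Wnk1d/d* libraries for 10, and *Wnk1f/f* replicate 4 was the lowest of all 9 for 8. How often these libraries were extreme over all genes was not counted, so these ranks cannot be called particular to the sterol arm. The mean log2(FPKM + 1) over the 17 enzymes was 3.02, 3.08, 3.12 and 2.91 in *Wnk1f/f* and 3.43, 3.08, 3.62, 3.40 and 3.20 in *Wnk1d/d* replicates, so that *Wnk1d/d* replicate 2 was level with *Wnk1f/f* replicate 2. The genotype means differed by 0.31 for the sterol arm, 0.14 for the fatty acid arm and 0.04 for the regulators. Being scores over a chosen set, they were not tested. The sterol mean includes *Idi1*, which passed the filter through the *Wnk1d/d* group alone, where it is high.

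Without *Wnk1d/d* replicate 2, 9 of the 29 genes that passed the filter in both genotypes passed the test with limma, all higher (31.0%, where 28.6% of all genes were called in that fit). The 5 that joined were *Hmgcs1*, *Mvd*, *Fdps*, *Cyp51* and *Dhcr7*, for 7 of 16 such genes of the sterol arm. *Idi1*, which entered through the *Wnk1d/d* group alone, had an adjusted p of 0.0317 there by limma. Without *Wnk1d/d* replicate 3, 3 of 30 genes passed, beside 12.2% of all genes, and without *Wnk1f/f* replicate 4, 1 of 30 did, beside 11.9% of all genes. The library with the highest sterol level, *Wnk1d/d* replicate 3, was also that with the highest *Cyp11a1* and *Hsd3b1*, whereas *Wnk1d/d* replicate 4 had a mean sterol level of 3.40 with these markers at 0.36 and 0.05 FPKM. The other libraries with *Hsd3b1* above 1 FPKM, *Wnk1d/d* replicates 1 and 2 and *Wnk1f/f* replicate 3, had mean sterol levels of 3.43, 3.08 and 3.12. The part of luteal tissue in the sterol levels was not tested. When the 4 libraries with *Hsd3b1* above 1 FPKM were left out, 3 *Wnk1f/f* and 2 *Wnk1d/d* libraries remained, 0 of the 30 genes passed the test with limma, and 3.62% of all genes did. The log2 differences in those 5 libraries were 0.93 for *Sqle* (adjusted p = 0.0544), 1.37 for *Pmvk* (0.0522), 0.41 for *Fasn* (0.123) and 0.33 for *Srebf2* (0.0914).

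**Figure D3:**
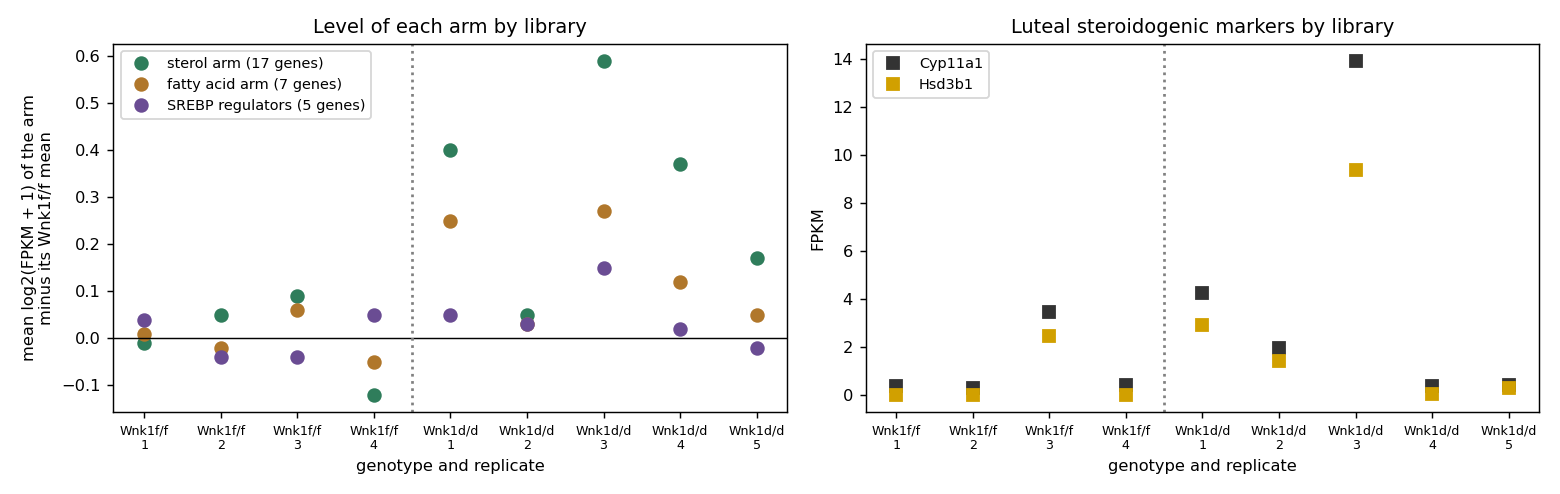
Left, mean log2(FPKM + 1) of the sterol arm (Idi1 included), the fatty acid arm and the regulators in each library, as a difference from the arm's Wnk1f/f mean. Right, FPKM of the luteal markers Cyp11a1 and Hsd3b1 in the same libraries. The sterol arm is highest in Wnk1d/d replicate 3, where both markers are highest too, and is also raised in Wnk1d/d replicate 4, where they are at most 0.36 FPKM. In Wnk1d/d replicate 2, with Hsd3b1 at 1.40 FPKM, the sterol arm lies among the controls.

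Genes next to the set in the pathway were counted from lists of the pathway's genes and named by the largest differences among those that passed the test. Of 11 other sterol synthesis and SREBP-2 target genes tested, 6 rose and 0 fell (54.5%, beside 22.1% of all genes), with a median log2 difference of 0.42. *Fabp5*, a fatty acid binding protein, rose from 3.87 ± 0.996 to 8.59 ± 2.16 FPKM (log2 difference 0.97, limma adjusted p = 0.01), and *Msmo1*, the C-4 methyl sterol oxidase, from 6.49 ± 1.14 to 11.1 ± 3.33 FPKM (0.66, limma adjusted p = 0.0418). In the 5 libraries with *Hsd3b1* below 1 FPKM, *Fabp5* and *Msmo1* passed the test with differences of 1.19 and 0.75.

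In the list for sterol efflux, storage and uptake, which is not limited to transporters, most genes that passed the test fell. Of 17 efflux, storage and uptake genes tested, 5 fell and 1 rose (35.3%, beside 22.1% of all genes), with a median of -0.09. *Scarb1*, the HDL receptor SR-BI, had 98.96 to 103.36 FPKM in *Wnk1f/f* and 30.74 to 74.33 FPKM in *Wnk1d/d* libraries (log2 difference -1.07, limma adjusted p = 0.00944). *Abcg1* and *Abca1*, transporters that export cholesterol to HDL and to lipid-poor apolipoprotein, fell by 0.99 and 0.91 on the log2 scale (limma adjusted p = 0.00518 and 0.0209), and neither overlapped between genotypes. *Nr1h3*, the oxysterol receptor LXR-alpha, under which *Abca1* and *Abcg1* are known to stand, fell from 21.3 ± 2.11 to 10.7 ± 1.23 FPKM (-0.94, limma adjusted p = 0.00144). It was counted among 11 genes of SREBP processing, of which 2 fell and 1 rose (27.3%, near the 22.1% of all genes). The others that passed were *Mbtps1*, the site-1 protease that cuts SREBPs (-0.28), and *Rnf139*, an endoplasmic reticulum ubiquitin ligase (0.32). In the 5 libraries with little *Hsd3b1*, *Nr1h3* (-0.89), *Scarb1* (-1.07) and *Abcg1* (-1.05) passed the test, and *Abca1* did not (-1.0, limma adjusted p = 0.0687). The stroma and endothelium markers that fell in the same libraries are given above, and their part in these differences was not tested.

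Fatty acid genes outside the set moved both ways. Of 19 other fatty acid and glycerolipid synthesis genes 4 rose and 2 fell (31.6%, beside 22.1% of all genes), with a median of 0.06. *Dgat2*, which forms triglyceride, rose from 39.2 ± 8.94 to 82.9 ± 26.7 FPKM (log2 difference 1.03, limma adjusted p = 0.0179). *G6pdx*, a source of NADPH, rose from 48.6 ± 6.52 to 79.5 ± 10.6 FPKM (0.70, limma adjusted p = 0.00637), and *Mlxipl*, the glucose-responsive factor ChREBP, fell from 2.97 ± 0.950 to 1.60 ± 0.489 FPKM (-0.60, limma adjusted p = 0.0398). For fatty acid oxidation, 1 of 18 genes rose and 2 fell (16.7%, below the 22.1% of all genes). They were *Etfdh* of electron transfer (0.44), *Hadh* (-0.28) and *Ppara* (-0.30), the last of which passed the filter through the *Wnk1f/f* group alone, where it is high. Among 11 lipid droplet and fatty acid uptake genes 1 rose and 2 fell (27.3%, near the 22.1% of all genes). They were *Plin4* (0.47), the fatty acid transporter *Slc27a1* (-0.69) and the triglyceride lipase *Pnpla2* (-0.36). In the 5 libraries with little *Hsd3b1* these 3 lists held 0, 0 and 2 genes that passed with limma, beside 3.62% of all genes.

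**Figure D4:**
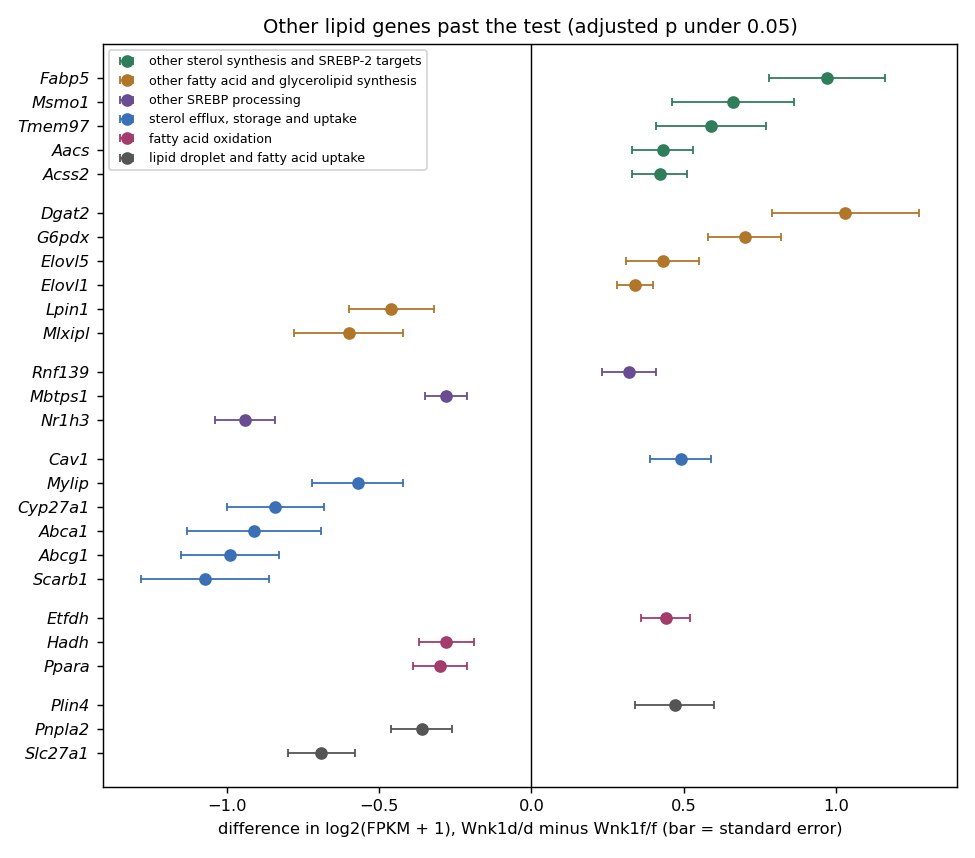
Difference in log2(FPKM + 1) with its standard error for genes of the other lipid lists that passed an adjusted p of 0.05, grouped by list. Dgat2 and Fabp5 lie farthest on the higher side, and Scarb1, Abcg1, Nr1h3 and Abca1 farthest on the lower side.

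The 4 genes that passed have no exon shared with another annotated gene and no near copy (at least 95% identity over at least 500 bases). Some of the others do, and their values are less certain where reads could be split. *Acat2* shares 1477 bases at 97.7% with *Acat3*, *Fdft1* overlaps *Ctsb*, which reached 1013 FPKM, over 774 bases on the opposite strand, *Tm7sf2* overlaps *Vps51* over 532 bases, and *Fdps*, *Idi1*, *Me1*, *Acaca* and *Elovl6* have near copies that are unnamed gene models. The library kit is not stated to keep strand.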

How the data were processed

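Uterine RNA of 9 mice was sequenced with the TruSeq RNA kit as paired-end reads. The authors aligned reads to mm10 with TopHat2 2.0.4 and computed FPKM with Cufflinks, given as 2.0.2 in the submitters' processing notes and as another release in the study's methods. The deposited table holds FPKM for 31274 entries and 9 libraries, unpooled, with 0 columns of other samples. Its gene annotation is not given in the sources used here. Depth is unknown from FPKM, so no counting intervals are given.

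The members and lists were chosen with earlier results of these data known. The 14728 genes whose mean FPKM exceeded 1 in either genotype were tested on log2(FPKM + 1), without further scaling, with limma 3.58.1 in R 4.3.3 (lmFit, eBayes with trend, unpaired) and Benjamini-Hochberg adjustment over all of them. A difference on this scale understates the change of genes with low FPKM. Cuffdiff, which needs aligned reads, was not rerun. Exact two-sided permutation tests over the 126 splits used NumPy 2.4.6 and Python 3.11.15, and near copies were found with BLAST 2.17.0. The libraries' medians of log2(FPKM + 1) lay between 3.79 and 3.82, although 1 entry took 70.3% of the summed FPKM in *Wnk1d/d* replicate 4. Correlations of log2 values across genes, which are not independent replicates, were 0.942 to 0.969 within and 0.906 to 0.956 between genotypes.

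All 30 members are named. Those that passed, and 3 paralogue pairs, are given in every library, and from each other list the 3 genes with the largest absolute differences among those that passed are named. Gene coordinates are from GENCODE M21 and promoters from RefSeq on GRCm38.p6. Results for some genes are not reported here, although list totals include them. Of the other lists, *Erg28* was not matched in the table. Alternatives were a filter at 5 FPKM or none, pseudocounts of 0.01 and 0.1, scaling to equal medians or equal quantiles, array weights, robust estimation, limma without its trend, a replicate block, other thresholds, and the omission of each library. Leaving out the 4 libraries with *Hsd3b1* above 1 FPKM was added after the marker values were seen. A comparison of paralogue proteins was not run, for want of protein sequences.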

Additional observations from a re-analysis of the deposited data

Results flagged for a closer look

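Within each genotype the lowest and highest library of every member was set against the rest by Dixon's 95% value. This was exceeded in 3 of 60 groups tested, and chance alone flags about 1 in 20. *Mvk* had 16.56 FPKM in *Wnk1d/d* replicate 3, where the next highest *Wnk1d/d* library had 12.26 FPKM and the lowest 10.64. *Cyp51* had 5.73 FPKM in *Wnk1f/f* replicate 3, against 4.73 to 4.78 in the other controls. *Me1* had 9.47 FPKM in *Wnk1f/f* replicate 1, against 5.52 to 6.08 in the other controls.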

How the results depend on the processing

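With 4 against 5 libraries and small differences, the calls turned on single libraries. Over 20 alternatives *Sqle* passed in 18, *Fasn* in 16, *Srebf2* in 13 and *Pmvk* in 9, always with a higher level in *Wnk1d/d* uteri. Where a call was lost and no library had been left out, the cause was not tested. The median log2 difference of all genes was 0.003 in the main fit, 0.01 with median scaling and -0.008 with quantile normalization. With the filter at 5 FPKM, which changes the genes tested, it was 0.02.

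At an adjusted p under 0.1 by limma, 10 of 30 members were called, beside 4934 of the 14728 genes tested, a near-equal share. They were 6 of the sterol arm, 2 of the fatty acid arm and 2 regulators. The 6 include *Idi1* (limma adjusted p = 0.0755), which passed the filter through the *Wnk1d/d* group alone. With a 1.5-fold ratio 2 members were called (fatty acid arm 0, regulators 0), beside 1513 of all genes. Without a filter 1 sterol member was called, *Pmvk* having a difference of 0.93 with an adjusted p of 0.0704, and with array weights 0 regulators were, *Srebf2* having 0.37. Leaving out 1 library gave 1 to 10 members (sterol arm 1 to 8, fatty acid arm 0 to 1, regulators 0 to 1; all genes 1739 to 4216, *Idi1* included). Without the 4 libraries with *Hsd3b1* above 1 FPKM, 0 members were called by limma (0 in each arm) and 534 genes in all. The arm level difference was then -0.02 for the regulators. The libraries left were *Wnk1f/f* replicates 1, 2 and 4 and *Wnk1d/d* replicates 4 and 5. There the sterol arm, *Idi1* included, stood at 3.02, 3.08 and 2.91 against 3.40 and 3.20. The fatty acid arm stood at 4.26, 4.23 and 4.20 against 4.37 and 4.30.

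Replicate numbers are shared by the genotypes in the titles, but same-numbered libraries did not deviate together (correlations -0.0867, -0.00293, 0.0221 and -0.268), and the mice differ. With a replicate block on replicates 1 to 4, limma called 0 members (0 in each arm) and 259 genes, *Sqle* having a difference of 1.03 (adjusted p = 0.0511), *Pmvk* 0.84, *Fasn* 0.46 and *Srebf2* 0.49.

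Signs near 0 turned in uncalled members. The block gave *Fdft1* 0.03, *Ebp* 0.09, *Stard4* 0.04 and *Acly* 0.01. Median scaling gave *Ebp* 0.01, quantile normalization *Scd2* -0.03, array weights *Srebf1* 0.00, and leaving out the *Hsd3b1* libraries *Scd2* -0.03 and *Insig1* -0.17. Leaving out single libraries gave ranges of -0.02 to 0.08 for *Acat2*, -0.01 to 0.14 for *Mvk*, -0.08 to 0.03 for *Fdft1*, -0.08 to 0.09 for *Ebp*, -0.10 to 0.04 for *Stard4*, -0.08 to 0.01 for *Acly*, -0.05 to 0.08 for *Elovl6*, -0.18 to 0.03 for *Scd1*, -0.04 to 0.02 for *Srebf1* and -0.04 to 0.14 for *Insig1*.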
